A study of Mus musculus with 26 samples.

Results

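The receptor for calcitonin gene-related peptide and adrenomedullin, its accessory proteins and the genes of its ligands were followed across mouse neurospheres and tumors of a Group3 medulloblastoma model. The gene symbols were Calcrl, Calcr, Ramp1, Ramp2, Ramp3, Adm and Calca, and a probe set was taken when its single annotated symbol was one of these 7. This gave 11 of the 45037 probe sets analysed, for 6 of the 7 genes and of 17097 genes in all, because no probe set carries Calca as its single symbol in the annotation table used and Calca is not analysed here. The genes were chosen on measured values of these same arrays, with results for all the group comparisons already known, so their levels and differences are given as a description and no p-value is printed for them.

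Calcrl encodes a G protein-coupled receptor that reaches the cell surface and binds its peptides only together with a receptor activity-modifying protein, or RAMP. With Ramp1 it forms the receptor for calcitonin gene-related peptide, a product of Calca, and with Ramp2 or Ramp3 it forms receptors for adrenomedullin, the product of Adm. The complex couples mainly to the Gs protein, which raises cyclic AMP. In most tissues Calcrl and Ramp2 are best known from blood and lymph vessel endothelium, and Adm is a classic target of the hypoxia response. Calcr encodes the calcitonin receptor, which pairs with the same RAMPs to form amylin receptors.

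All 26 arrays came from C57BL/6 mice, and every group carried deletions of Trp53 and Cdkn2c. The labels name Trp53 Cdkn2c neurospheres (3 arrays, given as granule neural progenitors, with postnatal neurospheres mentioned in the design text), Group3 neurospheres of medulloblastoma cells that also carry Myc (7 arrays), and Group3 medulloblastoma tumors of the same genotype (5 arrays). Further tumors of that genotype were called secondary (3 arrays), or had been given pemetrexed (2 arrays), gemcitabine (3 arrays) or both drugs (3 arrays). Neurospheres are floating cultures of neural cells, pemetrexed is an antifolate and gemcitabine is a nucleoside analogue. No dose, time, host, passage or way of introducing Myc is stated, and neither is whether arrays of a group came from separate animals or cultures, so any p-value measures only the spread between these arrays. Each array's title ends with a bracketed identifier that opens with a code, dka on 12 arrays and mmm on 14, and groups were compared within one code. The dka arrays held Trp53 Cdkn2c neurospheres, Group3 neurospheres, Group3 tumors and secondary tumors, 3 of each, and the mmm arrays held 4 Group3 neurospheres, 2 untreated Group3 tumors and all drug-treated tumors.

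Array medians lay between 4.65 and 4.82 on the log2 scale, and the median of all values was 4.73. A probe set around or below this level is called dim here, since no detection call was used, and differences against a dim group may understate the change. The dka arrays had their lowest value at 2.56 or above, whereas mmm arrays other than neurosphere replicate 7 reached as low as -0.41, so sizes of difference were not compared freely between the codes. The mean of the 3 dka Group3 neurospheres and the mean of mmm replicates 4 to 6 differed with an SD of only 0.13 over all probe sets. Pairs of single arrays differed with an SD of 0.45 to 0.53 within the dka set and 0.62 to 0.91 within those mmm replicates. Near-equal Group3 neurosphere means under both codes are therefore a property of the deposited values as a whole and were not counted as a repeat. Myc lay between 6.93 and 9.48 on all 26 arrays, and the 8.09 to 9.06 of the Trp53 Cdkn2c neurospheres lay inside that range, so it did not set the Myc genotype apart. Cdkn2c, deleted in all groups, was dim throughout (3.28 to 4.80).

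Among the dka arrays the receptor gene Calcrl and its partner Ramp1 stood out together in Group3 neurospheres. The 250 bases upstream of a RefSeq transcription start of each are shown because these members moved together there. The sequences are from RefSeq on build GRCm38.p6, written 5′ to 3′ along each gene's own strand. The Calcrl window is chr2:84425267-84425516 on the minus strand and the Ramp1 window is chr1:91179572-91179821 on the plus strand.
Calcrl promoter: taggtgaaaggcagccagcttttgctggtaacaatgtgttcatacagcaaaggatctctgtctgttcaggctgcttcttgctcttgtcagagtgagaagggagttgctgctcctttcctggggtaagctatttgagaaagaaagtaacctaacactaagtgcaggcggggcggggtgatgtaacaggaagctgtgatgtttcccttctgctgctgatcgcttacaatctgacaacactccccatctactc
Ramp1 promoter: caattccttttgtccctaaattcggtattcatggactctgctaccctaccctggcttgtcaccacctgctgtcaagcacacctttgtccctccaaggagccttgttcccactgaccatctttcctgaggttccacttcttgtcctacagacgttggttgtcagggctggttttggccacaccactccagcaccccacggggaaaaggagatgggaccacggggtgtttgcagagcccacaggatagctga
A search of both strands for the E-box CACGTG that MYC binds, the hypoxia response element core ACGTG, the cyclic AMP response element TGACGTCA and its shorter form TGACG found none of them in either window, so no letters are in capitals. Of 32851 promoter windows of the same length, 6.02% held CACGTG, 16.6% ACGTG, 1.55% TGACGTCA and 17.8% TGACG, where every CACGTG also counts as an ACGTG and every TGACGTCA as a TGACG. Among the windows of the other genes, those of Adm and Ramp3 held none of the 4 motifs. TGACG occurred 3 times over the 2 windows of Calcr and 1 time in that of Calca, and the other motifs were not found in these windows. Ramp2 had no window in the promoter set used and was not searched. Absence of these letters from these windows says nothing about distal sites or about binding.

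Calcrl was high in Group3 neurospheres and around the array median in nearly every other group. Its brighter probe set, 1425814_PM_a_at, read 8.98, 9.76 and 9.50 in the dka Group3 neurospheres and 4.14, 7.0 and 5.02 in the Trp53 Cdkn2c neurospheres. The dka Group3 tumors read 3.51, 3.66 and 4.99, and the secondary tumors 4.31, 4.62 and 4.22. All Group3 neurospheres were thus above all other dka arrays, and the Trp53 Cdkn2c group was uneven, with replicate 2 well above the others. The mean was 9.41 ± 0.40 (SD, n = 3) in Group3 and 5.39 ± 1.47 (n = 3) in Trp53 Cdkn2c neurospheres, a difference of 4.02 (moderated SE 0.62). Against Group3 neurospheres the dka tumors were lower by a difference of -5.36 (SE 0.62), from a tumor mean of 4.05 ± 0.82 (n = 3), and the secondary tumors by -5.03 (SE 0.62).

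The second Calcrl probe set, 1418489_PM_a_at, was dimmer and was also highest in Group3 neurospheres. The order of the other dka groups differed, with Trp53 Cdkn2c neurospheres lowest at a mean of 3.29. It read 4.34, 5.46 and 5.10 in the dka Group3 neurospheres and between 3.21 and 3.44 on the other 9 dka arrays. Its Group3 neurospheres did not overlap with any other dka group. The difference from Trp53 Cdkn2c neurospheres was 1.68 (SE 0.28) and that of dka tumors from Group3 neurospheres was -1.60 (SE 0.28), both with the comparison group well below the array median.

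The mmm arrays showed the same direction between cultured cells and tumors for Calcrl, though their neurosphere side is not counted as a repeat, as stated above. Probe set 1425814_PM_a_at read 7.98, 9.94, 9.36 and 8.46 in the mmm Group3 neurospheres and 5.0 and 5.76 in the untreated tumors, with no overlap. The tumors differed by -3.56 (SE 0.66), and probe set 1418489_PM_a_at by -1.36 (SE 0.29).

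**Figure D1:**
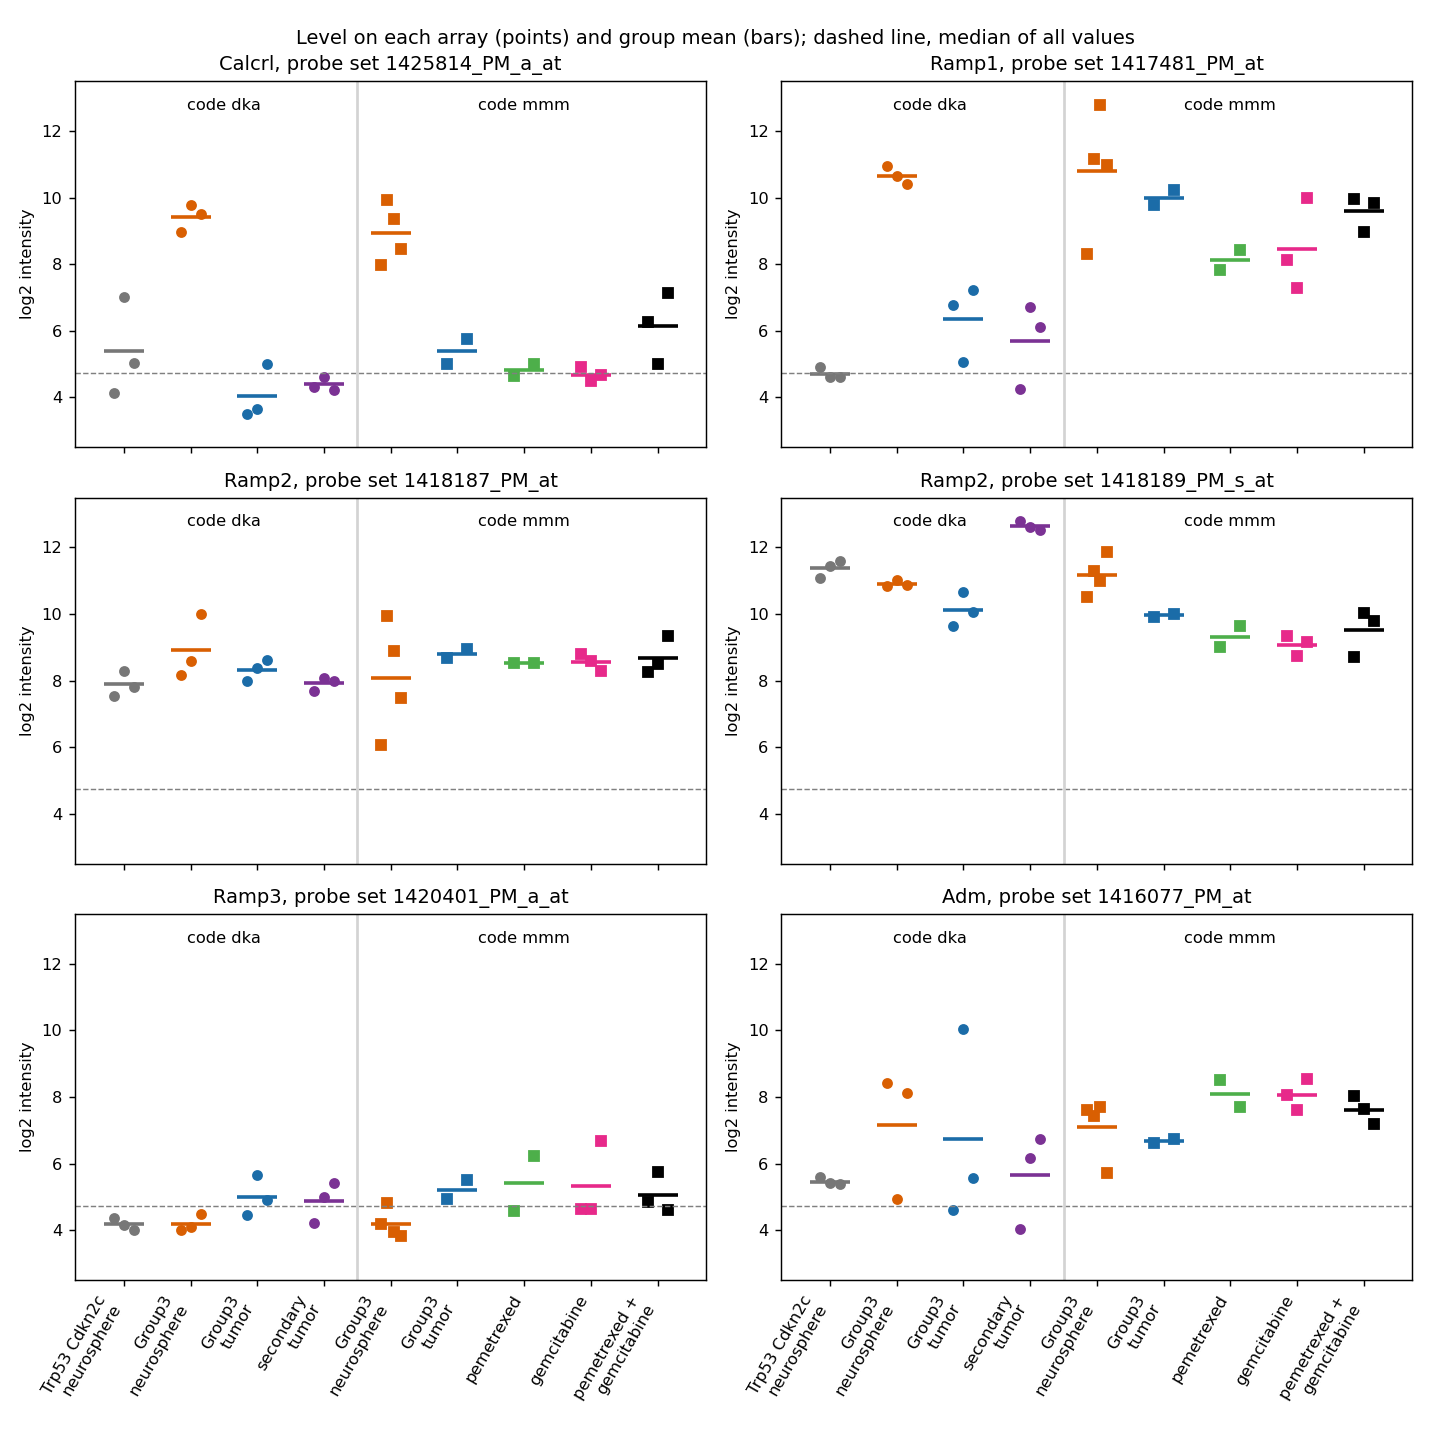
Level of 6 probe sets on each of the 26 arrays (points, log2 intensity on the vertical axis) and the mean of each group (horizontal bars), with dka groups as circles on the left and mmm groups as squares on the right of each panel. Calcrl reads 8.98 to 9.76 in the dka Group3 neurospheres against at most 7.0 on any other dka array, and Ramp2 probe set 1418189_PM_s_at reads 12.54 to 12.80 in the secondary tumors.

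Ramp1, the accessory protein that makes Calcrl a receptor for calcitonin gene-related peptide, was also highest in Group3 neurospheres among the dka arrays. Probe set 1417481_PM_at read 10.93, 10.64 and 10.40 in Group3 neurospheres and 4.90, 4.61 and 4.61 in Trp53 Cdkn2c neurospheres. The dka tumors read 6.76, 5.07 and 7.22, and the secondary tumors 4.25, 6.72 and 6.11. Group3 neurospheres were far above every other dka array, and the tumors lay above the Trp53 Cdkn2c neurospheres without overlap. The means were 10.66 ± 0.27 (n = 3) and 4.71 ± 0.16 (n = 3) in the neurosphere groups, a difference of 5.95 (SE 0.85). The dka tumors differed from Group3 neurospheres by -4.31 (SE 0.85) and the secondary tumors by -4.97 (SE 0.85). The difference of 1.64 (SE 0.85) between dka tumors and Trp53 Cdkn2c neurospheres did not pass limma's threshold.

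Untreated mmm tumors, in contrast, read high for Ramp1 although their Calcrl was near the array median. Their values on 1417481_PM_at were 9.77 and 10.23, within the spread of the mmm Group3 neurospheres at 8.29, 11.16, 12.77 and 10.99. The mmm tumor minus neurosphere difference was -0.81 (SE 0.90), against -4.31 in the dka arrays. The difference of these differences, 3.51 (SE 1.24), is a description, and 0 of the 11 probe sets passed limma for it (6.35% of all did). At an unadjusted p under 0.05 there was 1 of the 11, this one, beside 10352 of all 45037 probe sets. The difference for this probe set reached the threshold without mmm Group3 neurosphere replicate 6, at 4.16, and with array weights, at 2.89. Ramp1 probe set 1431413_PM_at gave another picture, with a tumor minus neurosphere difference of -1.29 (SE 0.43) in mmm and -1.53 (SE 0.40) in dka arrays. Its mmm tumors read 3.97 and 4.41 and its mmm neurospheres 4.05, 5.25, 6.43 and 6.18, so the groups overlapped and the tumors were dim. The dka call was lost without Group3 neurosphere replicate 1 (-1.28), and the mmm call without either tumor or without neurosphere replicate 6 or 7 (-0.97 to -1.51). The third Ramp1 probe set, 1447474_PM_at, was above the array median on 2 of 26 arrays only, mmm Group3 neurosphere replicates 6 (6.32) and 7 (6.99).

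Across the 26 arrays, after subtracting each code's mean, Calcrl and Ramp1 had a Pearson r of 0.77, which is a description over arrays that share group and amplification. Ramp1 stood at place 411 of 17096 genes by likeness to Calcrl, and Calcrl at place 229 by likeness to Ramp1, so many genes resembled either one more closely. The arrays that separated the pair were the mmm tumors, all of which had Ramp1 at 7.27 or above while Calcrl ranged from 4.48 to 7.14. Trp53 Cdkn2c neurosphere replicate 2 departed the other way, with Calcrl at 7.0 and Ramp1 at 4.61.

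**Figure D2:**
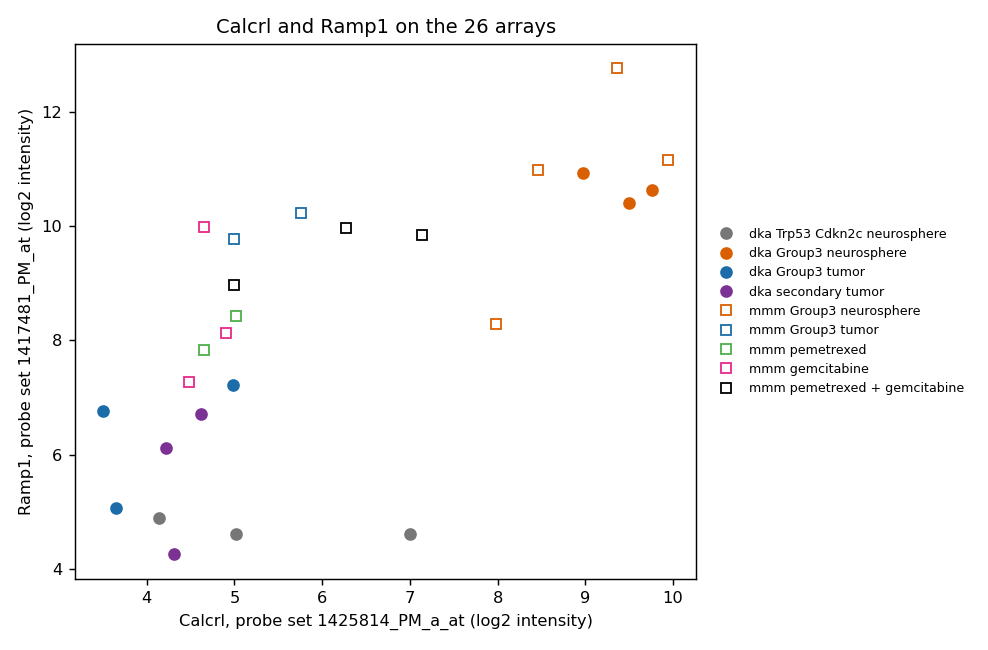
Calcrl (probe set 1425814_PM_a_at, horizontal axis) against Ramp1 (1417481_PM_at, vertical axis), both in log2 intensity, 1 point per array, with dka arrays filled and mmm arrays open. The Group3 neurospheres of both codes lie at the right with Calcrl of 7.98 or more, and the mmm tumors lie further left with Ramp1 at 7.27 to 10.23.

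Levels of marker genes of other cell types are given beside those of Calcrl and Ramp1. The mean log2 level of 10 astrocyte and stem cell markers was 7.62 to 8.13 in dka Group3 neurospheres, 5.53 to 6.34 in Trp53 Cdkn2c neurospheres, 4.60 to 7.06 in dka tumors and 4.63 to 5.47 in secondary tumors. Of these markers 5 rose and 0 fell in Group3 against Trp53 Cdkn2c neurospheres (20.1% of all probe sets passed), among them Aldoc, a glycolytic enzyme gene of astrocytes, by 7.28 (SE 1.07, limma adjusted p = 6.45e-05 over all probe sets). Against Group3 neurospheres 0 of the 10 rose and 4 fell in dka tumors (6.53% and 7.28% of all probe sets). In untreated mmm tumors, where Ramp1 was high but Calcrl was near the array median, these markers lay at 8.65 to 8.93. In mmm neurospheres they lay at 5.91 to 9.32, and in mmm tumors against these neurospheres 2 rose and 2 fell (8.1% and 9.35% of all). The array lowest for these markers was also lowest for Ramp1 among dka tumors, secondary tumors, gemcitabine tumors and mmm neurospheres, but not among the untreated mmm tumors, the combination tumors or the Trp53 Cdkn2c neurospheres. Markers of neurons and of microglia ran the other way, at 4.30 to 4.86 and 3.85 to 3.99 in dka Group3 neurospheres against 7.88 to 8.46 and 5.98 to 6.42 in dka tumors. The Trp53 Cdkn2c neurospheres had them at 8.33 to 8.81 and 5.82 to 6.40, close to the tumors. In dka tumors against this group 1 of 12 neuron markers fell and 0 of 15 microglia markers passed (8.06% of all probe sets fell). The name neurosphere for the Trp53 Cdkn2c group follows the labels, and whether its arrays hold only cultured cells was not tested. Against that group 7 of 12 neuron markers, 9 of 15 microglia markers and 1 of 2 red blood cell genes fell in Group3 neurospheres and 0 rose (10.4% of all probe sets fell), and of 8 pericyte and smooth muscle markers 1 rose and 1 fell. The red blood cell gene was Hba-a1, a haemoglobin chain, at 4.75 in Group3 and 9.55 in Trp53 Cdkn2c neurospheres, beside 8.10 in dka tumors. Of 12 neuron and 15 microglia markers 9 and 9 rose in dka tumors against Group3 neurospheres and 11 and 15 in mmm tumors, with 0 falling, where 6.53% and 8.1% of all probe sets rose. Of 8 pericyte and smooth muscle markers 3 rose in the dka tumors and 2 in the mmm tumors, and of 2 red blood cell genes 1 and 2. Of 4 lymphatic markers 0 passed with limma in either, and 0 had an unadjusted p under 0.05 (11656 and 13667 of all 45037 probe sets did). Fewer cells of a type and less RNA per cell cannot be told apart in bulk samples, and the part of these cell types in the levels of Calcrl and Ramp1 was not tested.

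Endothelial markers averaged lowest in the groups where Calcrl was highest. The mean level of 17 endothelial markers was 4.46 to 4.59 in dka Group3 neurospheres, 4.88 to 5.35 in Trp53 Cdkn2c neurospheres, 5.26 to 6.42 in dka tumors and 5.56 to 5.65 in secondary tumors, and 4.21 to 4.60 in mmm Group3 neurospheres against 5.65 to 5.85 in untreated mmm tumors. Of the 17, 9 were below the array median on all dka and 10 on all mmm Group3 neurosphere arrays. In dka tumors 12 of the 17 rose and 1 fell against Group3 neurospheres (6.53% and 7.28% of all probe sets), including Vwf, the von Willebrand factor gene, by 2.63 (SE 0.34, adjusted p = 3.72e-05). The exception was Plvap, a gene of fenestrated vessel walls, which fell by 3.09 on the log2 scale in dka tumors (SE 0.46, adjusted p = 0.000151) and was 4.44 higher (SE 0.46, adjusted p = 1.23e-06) in Group3 than in Trp53 Cdkn2c neurospheres. In that comparison of neurospheres it was the 1 marker that rose, and 2 fell, with a list median of -0.48. These were Sox18, an endothelial transcription factor gene, at -5.60 (SE 0.43, adjusted p = 2.39e-08), and Cldn5, a tight junction gene, at -2.71 (SE 0.47, adjusted p = 0.000332). The part of endothelial cells in the levels of Calcrl was not tested.

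Counted over the whole set, 4 of the 11 probe sets passed a limma adjusted p of 0.05 in Group3 against Trp53 Cdkn2c neurospheres, all higher, both of Calcrl and 2 of the 3 of Ramp1. The share of all probe sets past the threshold and higher was 9.77%, and nothing is read from the count because the rule covers these groups. Arrays did not overlap for 6 higher and 1 lower probe sets, where 20.2% and 18.4% of all probe sets did the same. In dka tumors against Group3 neurospheres 5 passed, all lower (7.28% of all), and in mmm tumors 5 passed, all lower (9.35% of all), whereas secondary tumors against Group3 neurospheres had 4 lower (10.7% of all) and 2 higher (11.1% of all). The median difference of the 11 was 1.04 in the neurosphere comparison and -0.79 in the dka tumor comparison, against 0.04 and 0.01 over all probe sets.

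**Figure D3:**
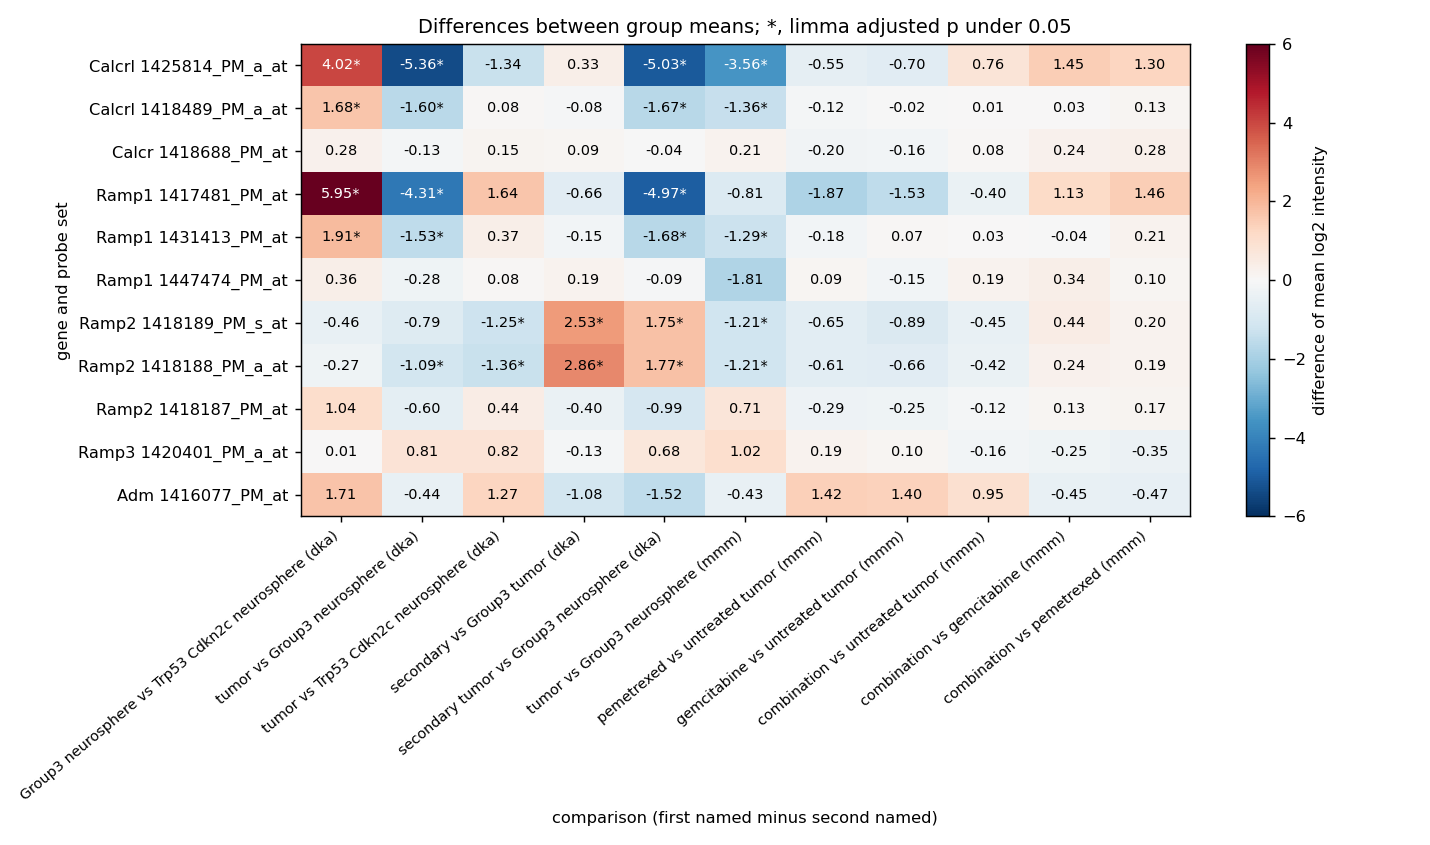
Difference of mean log2 intensity for each of the 11 probe sets (vertical axis) in 11 comparisons (horizontal axis, first group minus second), coloured from blue (lower) to red (higher), with an asterisk where the limma adjusted p is under 0.05. Asterisks fall on Calcrl, Ramp1 and 2 Ramp2 probe sets, and none falls in the 5 drug comparisons.

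Ramp2, whose protein turns Calcrl into an adrenomedullin receptor, was read by 3 probe sets whose values differed in order. The brightest, 1418189_PM_s_at, read 12.80, 12.63 and 12.54 in secondary tumors and 9.64, 10.67 and 10.05 in the dka Group3 tumors. The neurospheres lay between, at 11.07, 11.44 and 11.59 in the Trp53 Cdkn2c and 10.84, 11.02 and 10.87 in the Group3 group. No pair of these groups overlapped. Secondary tumors exceeded Group3 tumors by 2.53 (SE 0.33), or 2.86 (SE 0.34) on 1418188_PM_a_at, and these were the only 2 of the 11 probe sets past the threshold in that comparison (1.75% of all probe sets were past it and higher). Against Group3 neurospheres the secondary tumors were higher by 1.75 (SE 0.33) and 1.77 (SE 0.34). The dka tumors were below Trp53 Cdkn2c neurospheres by -1.25 (SE 0.33) and -1.36 (SE 0.34), the only 2 that passed there (8.06% of all passed and were lower), and without Group3 tumor replicate 1 neither passed (-1.01 and -1.09), nor did the first without Trp53 Cdkn2c neurosphere replicate 3 (-1.14). Only 1418188_PM_a_at passed for dka tumors against Group3 neurospheres, at -1.09 (SE 0.34), and it did not without tumor replicate 1 or 3 or neurosphere replicate 2 or 3 (-0.83 to -1.07).

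In the mmm arrays the bright Ramp2 probe set read 9.92 and 10.01 in untreated tumors and 10.52, 11.28, 10.99 and 11.88 in Group3 neurospheres. The tumors lay below all neurospheres, by -1.21 (SE 0.35) on 1418189_PM_s_at and -1.21 (SE 0.36) on 1418188_PM_a_at. Both calls were lost when either tumor or neurosphere replicate 7 was left out (-0.97 to -1.34), and the second also without neurosphere replicate 5 (-1.09).

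Probe set 1418187_PM_at, annotated to Ramp2 alone like the other pair, read 7.70, 8.08 and 8.0 in secondary tumors and 7.98, 8.37 and 8.62 in dka Group3 tumors. These groups overlapped and the difference was -0.40 (SE 0.63). In the Group3 neurospheres it read 8.16, 8.60 and 9.99 under dka and 6.08, 9.93, 8.89 and 7.47 under mmm, a wide spread within 1 group. It passed the threshold in none of the 11 comparisons within a code.

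The bright Ramp2 pair followed probe sets that the annotation gives to Malat1 and Ramp2 together. Malat1 is an abundant nuclear long non-coding RNA, and 4 probe sets carry both symbols, which the rule leaves out. Over the 26 arrays, each code's mean removed, 1418189_PM_s_at had a Pearson r of 0.98 with 1418188_PM_a_at and 0.99 with the shared probe set 1438403_PM_s_at, but -0.18 with 1418187_PM_at. With the remaining shared probe sets r was 0.72, 0.65 and 0.88, and with 1429060_PM_at, annotated to Malat1 alone, it was 0.21. In secondary against dka Group3 tumors the shared probe set 1438403_PM_s_at rose by 2.47 (SE 0.32, adjusted p = 0.000148), close to the 2.53 of the bright Ramp2 probe set. The Malat1 probe set differed by 0.06 (SE 0.37, adjusted p = 0.972). Probe sequences are not used here, so which transcript the bright pair reads is not settled, and the values above 11 in secondary tumors are given as those of the probe sets rather than of Ramp2 RNA.

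**Figure D4:**
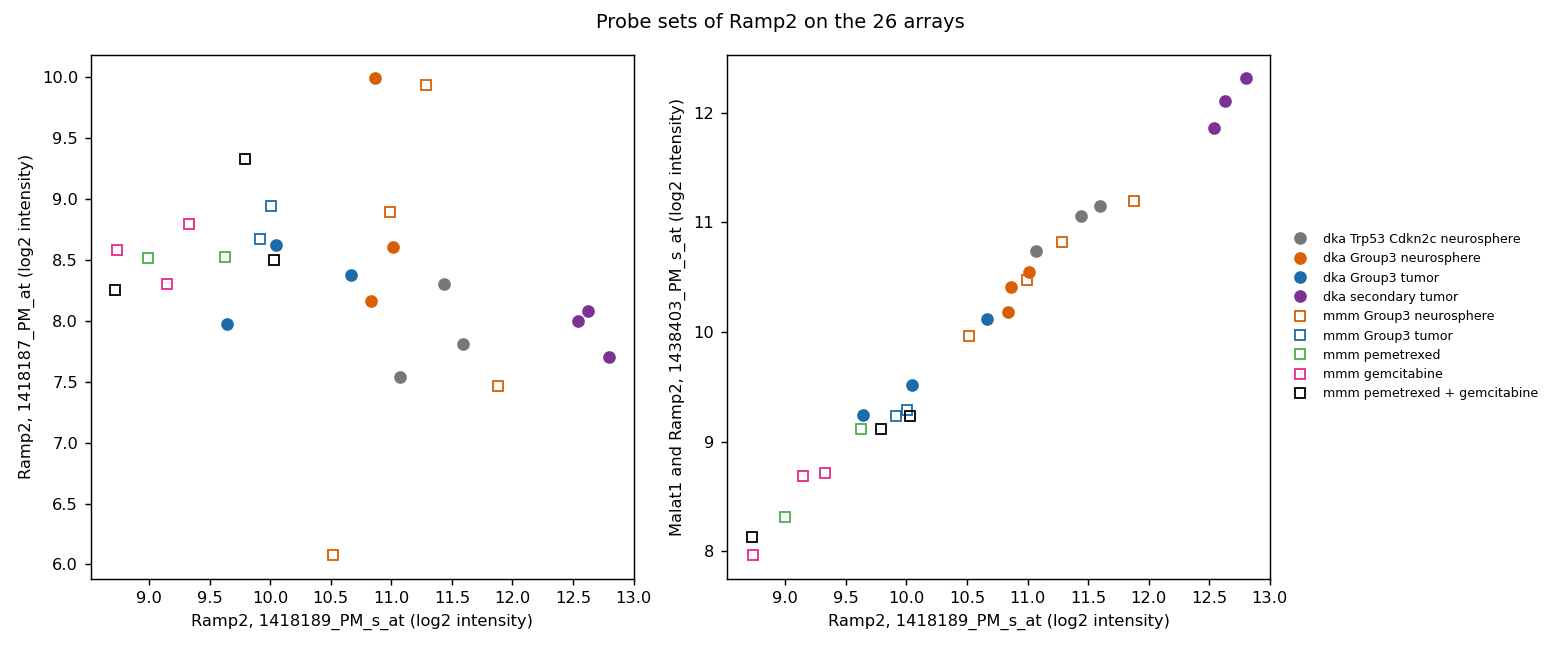
Probe set 1418189_PM_s_at, annotated to Ramp2, on the horizontal axis of both panels against 1418187_PM_at, also annotated to Ramp2 (left), and 1438403_PM_s_at, annotated to Malat1 and Ramp2 (right), in log2 intensity with 1 point per array. The left panel shows no shared order (r of -0.18 after removing each code's mean) and the right panel a near-straight line (r of 0.99).

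Ramp3, the other adrenomedullin accessory protein, stayed near the array median. Probe set 1420401_PM_a_at read 4.01, 4.09 and 4.49 in dka Group3 neurospheres and 4.45, 5.65 and 4.92 in dka tumors, and these groups overlapped, the lowest tumor lying below the highest neurosphere. The mmm neurospheres read 4.19, 4.83, 3.95 and 3.83 and the untreated tumors 4.93 and 5.51, which did not overlap. The tumor minus neurosphere differences were 0.81 (SE 0.51) and 1.02 (SE 0.54), and neither passed. The highest values were single drug-treated tumors, 6.69 in gemcitabine replicate 3 and 6.23 in pemetrexed replicate 2. Calcr, the calcitonin receptor gene, lay between 3.0 and 4.38 and below the array median on 26 of 26 arrays, so no level could be read for it.

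Adm, the adrenomedullin ligand gene, varied widely within the dka groups. It read 8.43, 4.93 and 8.13 in dka Group3 neurospheres, 5.59, 5.41 and 5.38 in Trp53 Cdkn2c neurospheres, and 4.60, 10.04 and 5.55 in dka tumors. The group means of 7.17 ± 1.94, 5.46 ± 0.12 and 6.73 ± 2.91 (n = 3 each) were close beside these SDs, apart from the even Trp53 Cdkn2c group. The secondary tumors read 4.02, 6.18 and 6.75, and the mmm neurospheres 7.61, 7.44, 7.70 and 5.71. No comparison of Adm passed limma's threshold, and dka tumors and Group3 neurospheres overlapped throughout.

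In the dka tumors and Group3 neurospheres, the arrays high in Adm were those high in other hypoxia genes. Among dka tumors the mean level of 18 hypoxia genes was 9.72 on replicate 2, where Adm was 10.04, against 8.24 and 8.67 on replicates 1 and 3. Among dka Group3 neurospheres it was 7.71 on replicate 2, where Adm was 4.93, against 9.20 and 8.80. Trp53 Cdkn2c neurospheres had both the lowest hypoxia means, 7.37 to 7.58, and an even Adm. The highest arrays also coincided in the untreated mmm tumors, the pemetrexed tumors and the combination tumors, where replicate 1 had a hypoxia mean of 9.92 and Adm of 8.03. The order was reversed in the gemcitabine tumors, with hypoxia means of 9.08, 9.14 and 9.03 beside Adm of 8.06, 7.61 and 8.55. It was also reversed, over small differences, in the Trp53 Cdkn2c neurospheres. Secondary tumors and mmm neurospheres kept it in part, with mmm neurosphere replicate 7 at a hypoxia mean of 8.73 and Adm of 5.71. In Group3 against Trp53 Cdkn2c neurospheres 4 of the 18 hypoxia genes rose and 1 fell, beside 9.77% and 10.4% of all probe sets, among them Pdk1, a kinase that limits entry of pyruvate into mitochondria, by 4.18 (SE 0.37, limma adjusted p = 1.66e-07), and Vegfa, the vessel growth factor, by 2.35 (SE 0.72, adjusted p = 0.025). The part of the hypoxia response in the Adm values was not tested.

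**Figure D5:**
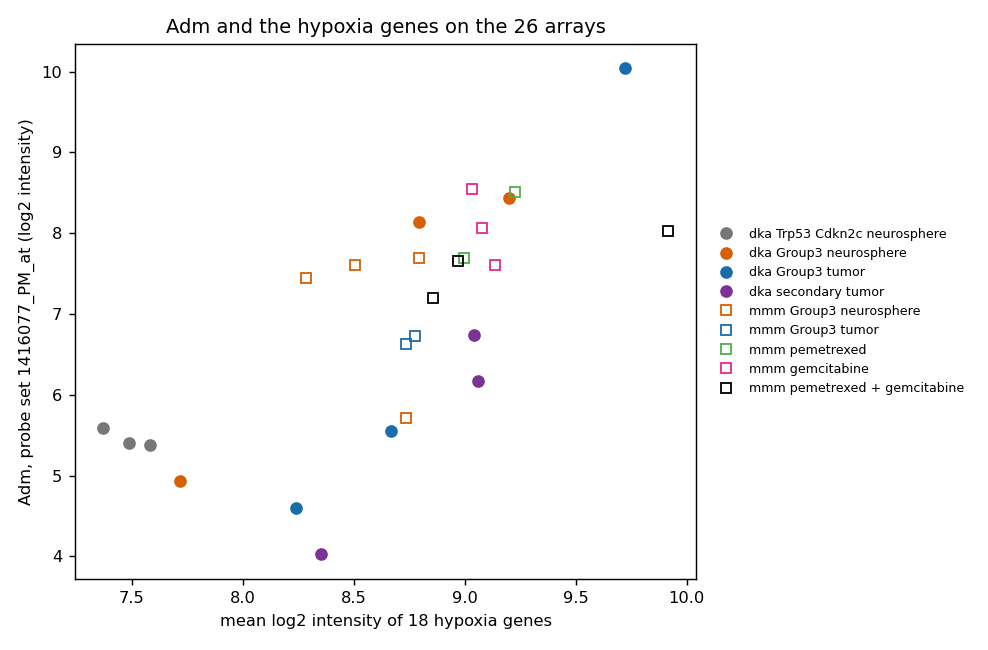
Adm (vertical axis, log2 intensity) against the mean log2 intensity of 18 hypoxia genes (horizontal axis), 1 point per array, with dka arrays filled and mmm arrays open. Group3 tumor replicate 2 of the dka arrays sits at the top with Adm at 10.04, and the Trp53 Cdkn2c neurospheres sit at the left with hypoxia means of 7.37 to 7.58.

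Treatment of tumors with pemetrexed, gemcitabine or both was compared with the same 2 untreated mmm tumors, so the 3 comparisons share their controls. With limma 0 of the 11 probe sets passed in any of them (0.00444%, 0.00888% and 0.0688% of all probe sets passed). At an unadjusted p under 0.05 the numbers were 0, 1 and 0, beside 1971, 3761 and 3335 of all 45037 probe sets. The single one was Ramp2 probe set 1418189_PM_s_at with gemcitabine. With array weights 2 passed with gemcitabine, Ramp1 1417481_PM_at and Ramp2 1418189_PM_s_at. Adm read 6.63 and 6.73 in untreated tumors, 8.51 and 7.69 with pemetrexed, 8.06, 7.61 and 8.55 with gemcitabine, and 8.03, 7.65 and 7.20 with both. All 8 treated tumors were above both untreated ones, by mean differences of 1.42 (SE 1.29), 1.40 (SE 1.18) and 0.95 (SE 1.18). Their 95% intervals of -1.27 to 4.11, -1.06 to 3.85 and -1.51 to 3.40 include 0. These SEs pool the spread within all groups, among them the dka tumors with an SD of 2.91. Untreated, pemetrexed, gemcitabine and combination tumors had SDs of 0.07, 0.58, 0.47 and 0.41, so the intervals do not measure the spread of these tumors alone. Complete separation of the arrays upward was found for 29.6%, 20% and 22.2% of all probe sets in these comparisons. The 18 hypoxia genes averaged 8.73 and 8.77 in the untreated tumors and 8.86 to 9.92 in the treated ones, and 0 of them passed in any drug comparison (0, 0 and 1 at an unadjusted p under 0.05).

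Ramp1 averaged lower with each single drug on its brightest probe set, without passing the test. Probe set 1417481_PM_at read 7.83 and 8.43 with pemetrexed, 8.13, 7.27 and 9.99 with gemcitabine, and 9.97, 8.97 and 9.84 with both, against 9.77 and 10.23 untreated. The differences were -1.87 (SE 1.04), -1.53 (SE 0.95) and -0.40 (SE 0.95). Only the pemetrexed tumors lay wholly below the untreated ones, as did 17.9% of all probe sets. The other Ramp1 probe sets, both dim in these tumors, did not share this order. Untreated, pemetrexed and gemcitabine tumors averaged 4.19, 4.01 and 4.26 on 1431413_PM_at, and 3.01, 3.11 and 2.86 on 1447474_PM_at. Calcrl read 4.65 and 5.01 with pemetrexed, 4.91, 4.48 and 4.66 with gemcitabine, and 6.27, 4.99 and 7.14 with both, against 5.0 and 5.76 untreated. The combination was above gemcitabine on all arrays, by 1.45 (SE 0.62), as were 4.5% of all probe sets. Against gemcitabine and against pemetrexed, 0 of the 11 passed for the combination (0% and 0.00666% of all probe sets). At an unadjusted p under 0.05 there were 1 and 0 of the 11, beside 2467 and 1181 of all 45037 probe sets.

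Genes that act with these receptors passed the test about as often as probe sets in general in the neurosphere comparison. Of 14 measured genes of related peptides and of peptide processing, 3 rose and 1 fell in Group3 against Trp53 Cdkn2c neurospheres (median difference 0.01, against 0.04 over all probe sets), beside 9.77% and 10.4% of all probe sets. Ackr3, a decoy receptor that binds adrenomedullin, rose by 2.72 (SE 0.83, limma adjusted p = 0.0239). Pam, the enzyme that amidates peptides such as adrenomedullin, rose by 2.14 (SE 0.43, adjusted p = 0.00111), and Adcyap1, a neuropeptide gene, fell by 2.31 on the log2 scale (SE 0.71, adjusted p = 0.0245). In dka tumors against Group3 neurospheres 2 of the 14 rose and 0 fell (6.53% and 7.28% of all), and in mmm tumors 2 rose and 2 fell (8.1% and 9.35% of all). Ece1, an endopeptidase gene, was on opposite sides, higher by 1.68 (SE 0.27, adjusted p = 0.000345) in dka tumors and at -1.04 (SE 0.29, adjusted p = 0.0172) in mmm tumors. Its difference of differences was -2.72 (SE 0.40, adjusted p = 0.00142), under the limit stated above on comparing sizes between the codes.

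Of 30 genes of Gs, cyclic AMP and receptor desensitisation, 5 rose and 2 fell in Group3 against Trp53 Cdkn2c neurospheres (9.77% and 10.4% of all probe sets), 5 rose and 5 fell in dka tumors against Group3 neurospheres (6.53% and 7.28%), and 7 rose and 2 fell in mmm tumors (8.1% and 9.35%). Pde10a, a phosphodiesterase that breaks down cyclic nucleotides, was 3.29 higher (SE 0.53, limma adjusted p = 0.000152) in Group3 neurospheres and fell by 2.73 in dka tumors (SE 0.53, adjusted p = 0.00149). Adcy2, an adenylyl cyclase, was 2.38 higher (SE 0.56, adjusted p = 0.00461) in Group3 neurospheres, at -2.15 (SE 0.56, adjusted p = 0.0141) in dka tumors and at 2.83 (SE 0.60, adjusted p = 0.00278) in mmm tumors. For Adcy2 the difference of differences was 4.97 (SE 0.82, adjusted p = 0.00293) and for Pde10a 3.73 (SE 0.77, adjusted p = 0.00945). Both values carry the limit stated above on comparing sizes between the codes, and tumors and code cannot be told apart in them. Rapgef3, a cyclic AMP sensor, was 1.98 higher (SE 0.49, adjusted p = 0.0062) in Group3 neurospheres. In secondary against dka Group3 tumors 1 of the 30 passed, Arrb2, a desensitising arrestin, which fell by 0.55 (SE 0.13, adjusted p = 0.0254), where 0.535% of all probe sets fell. In the drug comparisons against untreated tumors 0 of the 14 and 0 of the 30 passed with limma. At an unadjusted p under 0.05 there were 1, 2 and 1 of the 14 and 6, 6 and 9 of the 30. Over all 45037 probe sets the numbers were 1971, 3761 and 3335, so the 30 genes were past that level more often than probe sets in general.

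Genes were ranked by Pearson likeness to the brightest probe set of each member over the 26 arrays, with each code's mean removed. Calcrl was most like Tmem44 (r = 0.94), Kiz (0.93) and Arhgap18 (0.93), and Arhgap18 averaged 7.81 ± 0.23 (n = 3) in dka Group3 neurospheres and 4.35 ± 0.40 (n = 3) in dka tumors. Ramp1 was most like Sox8 (0.93), a SoxE transcription factor gene, Zcchc24 (0.93) and Dbi (0.93), and Sox8 averaged 10.04 ± 0.61 in dka Group3 and 5.03 ± 0.54 in Trp53 Cdkn2c neurospheres (n = 3 each). For the bright Ramp2 probe set the list was Dhx36 (0.85), Prpf38b (0.81) and Dcun1d1 (0.79). Ramp3 was most like Prex2 (0.89), Gabra4 (0.82) and Slfn2 (0.80), and Adm like Ndufv2 (0.80), Elmo2 (0.79) and Psmd8 (0.74). These correlations rest on 9 group and code combinations and are descriptions.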

How the data were processed

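RNA was extracted with Trizol, amplified with NuGEN Ovation Pico WTA V2, labelled with NuGEN Encore Biotin and hybridised to mouse Affymetrix HT MG-430 PM arrays, per the labels' protocols. The submitters' processing notes name RMA and Partek 6.6 for the deposited log2 values; an RMA version is not given in the sources used here. They were used as deposited. Of 45141 probe sets 104 controls were left out. The platform annotation, whose symbols can be old, gave 1 symbol for 28898, several for 551 and none for 15588.

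All 26 arrays were fitted with limma 3.58.1 in R 4.3.3, 1 mean for each of 9 group and code combinations, 12 contrasts and moderated (eBayes) variances. P-values were adjusted by Benjamini-Hochberg across the 45037 probe sets, with a threshold of 0.05. SE is the moderated standard error. The script was tested on simulated arrays of this layout. For gene lists (130 of 148 symbols measured) and likeness the brightest probe set on average stood for a gene. Members, lists and tests were chosen with earlier results of these data known. Members were all named; up to 3 list genes past 0.05 by size per list, and the 3 most alike genes of each member, could be named. Replicates were numbered in deposit order. Each array in turn was left out, and 6 other settings were tried. Array number limits precision. Figures used Python 3.11.15 and matplotlib 3.10.9.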

Additional observations from a re-analysis of the deposited data

Results flagged for a closer look

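In the 4 mmm Group3 neurospheres Adm read 7.61, 7.44 and 7.70 on replicates 4 to 6 and 5.71 on replicate 7, which stood apart from the others of its group. It was 1 of 33 sets of 4 to 10 arrays checked in this way, and chance marks about 1 set in 20. Replicate 7 was also the only mmm array whose lowest value over all probe sets, 2.64, lay in the range of the dka arrays.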

How the results depend on the processing

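The 132 differences of single probe sets kept their direction wherever they were called. Leaving out 1 array kept the side of the threshold in 781 cases, lost the call in 19 and gained it in 3. The other settings kept the side in 700, lost the call in 4 and gained it in 5. Most of the 132 differences were not called with all arrays, and only called ones could lose a call. The kept cases are therefore mostly uncalled ones. The calls of Calcrl on both probe sets, of Ramp1 1417481_PM_at in the dka arrays and of the bright Ramp2 pair in secondary tumors held throughout. Because the genes were chosen on these same arrays, that describes the calls and gives them no support.

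With each array left out in turn, the probe sets called among the 11 numbered 0 to 2 for dka tumors against Trp53 Cdkn2c neurospheres, 2 to 6 for mmm tumors against neurospheres and 0 to 1 for the mmm minus dka difference. Over all probe sets the calls ranged from 3021 to 8381 for mmm tumors against neurospheres (7860 with all arrays), 587 to 3711 for mmm minus dka (2862), 1 to 26 for pemetrexed (2), 0 to 704 for gemcitabine (4), 1 to 82 for both drugs (31), 0 to 65 for both against gemcitabine (0) and 0 to 10 for both against pemetrexed (3).

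Fitting the arrays of 1 title code alone gave 2 of the 11 for mmm tumors against neurospheres, and over all probe sets 1 for each treatment against untreated tumors and 0 for both drugs against pemetrexed. Quantile normalization gave 15 for both drugs. With 1 probe set per gene, which tests fewer features, the calls were 3865 (2 of the members) for Group3 against Trp53 Cdkn2c neurospheres, 3172 (2) for dka tumors against Group3 neurospheres, 2668 (1) for dka tumors against Trp53 Cdkn2c neurospheres, 92 (1) for secondary against dka tumors, 4213 (3) for secondary tumors against neurospheres and 3782 (2) for mmm tumors against neurospheres. The same setting gave 1567 for mmm minus dka, 0 for each single drug, 13 for both drugs and 0 for both against pemetrexed. Array weights gave 2029 for secondary against dka tumors, 13541 for mmm tumors against neurospheres, 5242 (1 member) for mmm minus dka, 218 for pemetrexed, 5975 (2 members) for gemcitabine, 1434 for both, 251 for both against gemcitabine and 7 for both against pemetrexed. A variance trend with robust fitting gave 5 for pemetrexed and 1 for both against gemcitabine. The cause of these shifts was not tested.

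No paired analysis was possible because the replicate numbers follow deposit order and tie no array of one group to an array of another. Dim probe sets such as that of Calcr, and groups of 2 or 3 arrays, limit what these comparisons show.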
